A study of Mus musculus with 16 samples.

Results

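The oxidative phosphorylation genes described here are 37 nuclear genes that encode subunits of the mitochondrial respiratory chain and of ATP synthase. They were chosen by symbol, and each is represented by its brightest probe among those whose accession maps to that symbol. All 37 were found among the 33269 gene names of the array, and all 37 were well above background on all 16 arrays. They comprise 19 genes of complex I, 4 of complex II, 5 of complex III, 5 of complex IV and 4 of complex V. The 16 one-colour arrays came from female C57Bl/6 mice made cirrhotic by 40 weeks of an atherogenic high-fat diet, which every group had eaten. The 4 groups, with 4 arrays each, were inflammatory cells of the liver from mice given ADSC, inflammatory cells from mice given PBS, whole liver from mice given ADSC and whole liver from mice given PBS. ADSC are stem cells cultured from the inguinal fat of GFP-transgenic mice. They were given as 2 injections of 100000 cells each under the spleen capsule, and tissue was collected 2 weeks after the last injection. PBS, phosphate-buffered saline, was the control. Whether the 4 arrays of a group stand for 4 mice is not stated in the labels. Each p-value below therefore reflects differences among samples that may be technical in part. The extraction text refers to cells that infiltrate a tumor and to blood, and it leaves the isolation of the inflammatory cells unclear.

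Complexes I and II pass electrons from NADH and succinate to ubiquinone, complex III passes them on to cytochrome c, and complex IV passes them to oxygen. Complexes I, III and IV pump protons across the inner mitochondrial membrane, and complex V, the ATP synthase, uses the returning protons to make ATP. Hepatocytes are rich in mitochondria and rely on this pathway for gluconeogenesis, urea synthesis and fatty acid oxidation, whereas activated neutrophils and macrophages are known for a high use of glycolysis. All subunits of complex II are nuclear genes, while the other complexes also hold subunits encoded by mitochondrial DNA, which are not analysed here. The transcription factors NRF1, GABPA, YY1 and ERRalpha are known regulators of nuclear genes for these subunits.

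To show where short matches to those factors lie, RefSeq promoters (GRCm38.p6, 250 bases before to 50 bases after each gene start) were searched on both strands. The table holds 29 promoters of 27 of the 37 genes. The NRF1 letters GCATGCGC were found in 4 of the 29 promoters (13.8%) and in 2.71% of all 32851 promoters of that length. The YY1 letters AAGATGGC were in 3 of 29 (10.3%), against 2.75% of all promoters. The ETS letters CCGGAAGT, which GABPA recognises, were in 1 of 29 (3.45%), against 3.89% of all promoters, and the ERRalpha letters AAGGTCA were in 1 of 29 (3.45%), against 4.72%. The members' promoters had a median GC content of 60.7%, against 52.7% for all promoters. The stretches around the NRF1 and YY1 matches are printed 5′ to 3′ on the strand of the gene, with the matched letters in capitals. In Uqcrc1 a match on each strand overlaps the other.
Ndufa8, chr2:36049314-36049371, minus strand: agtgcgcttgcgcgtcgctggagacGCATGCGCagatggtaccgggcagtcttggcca
Ndufa6, chr15:82354342-82354399, minus strand: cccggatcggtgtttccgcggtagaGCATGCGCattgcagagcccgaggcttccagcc
Sdhb, chr4:140961192-140961249, plus strand: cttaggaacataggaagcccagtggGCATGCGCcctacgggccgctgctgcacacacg
Uqcrc1, chr9:108936653-108936697, plus strand: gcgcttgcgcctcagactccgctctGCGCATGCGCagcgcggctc
Ndufa9, chr6:126849095-126849140, minus strand: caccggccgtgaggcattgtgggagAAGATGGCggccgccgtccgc
Ndufb8, chr19:44555393-44555429, minus strand: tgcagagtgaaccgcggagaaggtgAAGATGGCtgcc
Ndufs7, chr10:80249448-80249498, plus strand: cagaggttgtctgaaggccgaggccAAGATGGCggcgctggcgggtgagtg
Counted from 0 at the gene start, the NRF1 match began at -8 in Ndufa8, -54 in Sdhb, -83 in Ndufa6 and 30 in Uqcrc1. The YY1 match began at 29 in Ndufa9, 38 in Ndufb8 and 24 in Ndufs7.

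Every level below is the log2 processed signal minus the 75th percentile of its array, so a level of 0 equals that percentile. The percentile itself lay between 123.4 and 552.8 in linear signal units, and 51.6% to 66.3% of spots per array were well above background. The labelled sample types were checked with marker genes. The mean level of the leukocyte markers was 4.37 to 5.13 in inflammatory cells and 1.98 to 2.84 in liver, and all 5 were called higher in inflammatory cells. The hepatocyte markers averaged between -0.53 and 2.16 in inflammatory cells and between 5.87 and 6.75 in liver, and all 9 tested were called lower. Of these 9, 8 also passed the detection filter among the inflammatory cell arrays alone. The remaining 1 entered the test through the liver, so the direction of its call was largely set by that filter. The 10 exocrine pancreas markers were also called higher in inflammatory cells. Only 2 of them were well above background on 4 or more of the 8 liver arrays. The others entered the test through the inflammatory cells, so the direction of their calls was largely set by that filter. Their mean level was 6.52 on PBS 11, 8.50 on PBS 13 and 8.65 on ADSC 10, against -1.52 to 2.52 on the other 5 inflammatory cell arrays. Both sample types held 1 array that stood apart for the oxidative phosphorylation genes. Liver PBS 12 had the lowest level of the 8 liver arrays for all 37 genes, and inflammatory cells PBS 13 had the highest level of the 8 inflammatory cell arrays for 24 of them.

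All 37 genes were lower in inflammatory cells than in whole liver. The median log2 difference, inflammatory cells minus liver, was -1.49, against 0.35 over all 22174 genes tested. The differences ranged from -2.66 for Uqcrq, a 6.32-fold lower signal, to -0.55 for Ndufb7, a 1.46-fold lower signal. All 37 passed the limma test at a Benjamini-Hochberg adjusted p of 0.05. At that threshold 35.4% of all genes tested were called lower, 10862 of 22174 were called higher and 84.3% were called in either direction. In 23 of the 37 genes the highest of the 8 inflammatory cell arrays lay below the lowest of the 8 liver arrays, which was so for 23.8% of all genes tested. These are bulk samples, in which fewer cells of a type and less RNA per cell cannot be told apart. The leukocyte, hepatocyte and exocrine pancreas markers given above move with this comparison, as do the 5 heat shock genes, with mean levels of 5.96 to 7.63 in inflammatory cells and 0.80 to 1.39 in liver. The 4 erythroid markers tested were called higher too, with a median difference of 5.84, as were all 5 B cell markers (4.43) and all 4 T cell markers tested (3.37). Of 10 neutrophil markers 9 were called higher and 1 lower, at -1.41 (median 3.41 over the 10). Among the liver arrays alone, 3 erythroid, 4 B cell, 3 T cell and 9 neutrophil markers passed the detection filter. The rest of these lists entered the test through the inflammatory cells, and the medians include them. Of 5 macrophage markers tested, 2 were called higher. Their part in the result was not tested.

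**Figure D1:**
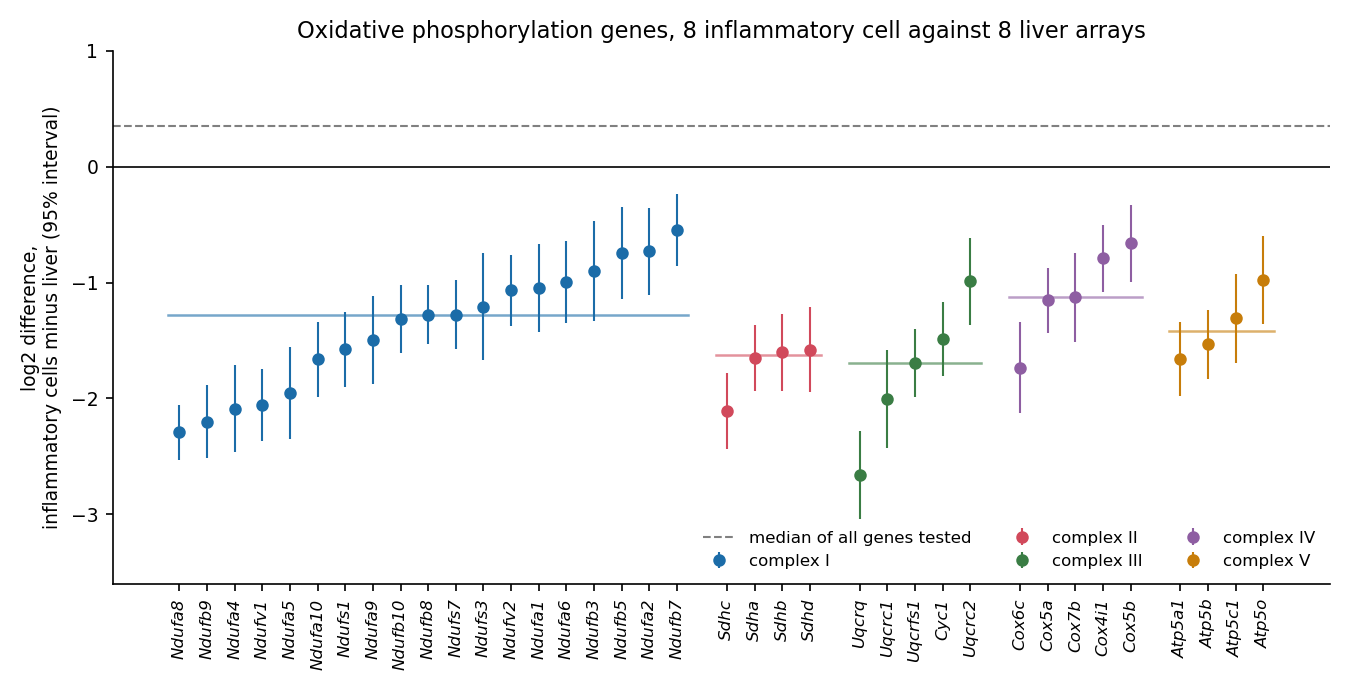
Log2 difference, inflammatory cells minus liver, for each of the 37 genes (points) with its 95% interval from limma (bars), grouped by complex, with the median of each complex as a horizontal line. All 37 intervals lie below 0, and the dashed line marks the median of all genes tested, 0.35.

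Complex I, the NADH dehydrogenase, had a median difference of -1.28 over its 19 genes. The 5 genes of its catalytic core were Ndufs1, Ndufs3, Ndufs7, Ndufv1 and Ndufv2, which bind flavin or iron-sulfur clusters or help form the quinone site. Their differences ranged from -2.06 for Ndufv1, the subunit with the NADH-binding flavin, to -1.07 for Ndufv2, and their median was -1.28. The 13 accessory subunits had a median of -1.28 as well and a wider range, with Ndufa8 at -2.29 and Ndufb7 at -0.55. The core and accessory subunits therefore had the same median at 2 decimals, and the spread lay within each class.

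Ndufa8, a membrane-arm subunit held together by disulfide bonds, had the smallest p of the complex. Its level was 0.93 to 1.79 in inflammatory cells, with a median of 1.24, against 3.27 to 3.85 in liver, with a median of 3.57. The groups were far apart, with a difference of -2.29 ± 0.11 (SE, n = 8 each) and an adjusted p of 2.2e-11 by limma. The exact two-sided permutation p of 0.000155 is the smallest that 8 against 8 arrays can give. Ndufb9, another membrane-arm subunit, and Ndufa4 followed in size, and Ndufa5, which sits on the peripheral arm, differed by -1.95 ± 0.19. Ndufb7 lay at the other end of the complex, with levels of 4.48 to 5.63 in inflammatory cells and 4.94 to 5.88 in liver. Its groups overlapped, and its adjusted p was 0.00274 by limma. Close to it were Ndufa2, at -0.73, and Ndufb5, at -0.74, whose groups overlapped too.

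Complex II, succinate dehydrogenase, is also an enzyme of the tricarboxylic acid cycle. Its 4 genes gave a median difference of -1.63. Sdhc and Sdhd anchor the enzyme in the membrane, while Sdha carries the flavin and Sdhb the iron-sulfur clusters. Sdhc had levels of 1.45 to 2.50 in inflammatory cells, with a median of 1.77, against 3.52 to 4.26 in liver, with a median of 3.98. The arrays of the 2 sample types did not overlap, and the difference was -2.11 ± 0.15 (SE, n = 8 each; limma adjusted p 2.33e-09). Sdha, Sdhb and Sdhd lay close together at -1.65, -1.60 and -1.58.

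Complex III, the cytochrome bc1 complex, had a median of -1.69 and the widest range after complex I. Uqcrq, a small subunit next to cytochrome b, had levels of 4.75 to 6.13 in inflammatory cells, with a median of 5.18, against 7.14 to 8.23 in liver, with a median of 7.96. No array overlapped, and the difference was -2.66 ± 0.18 (SE, n = 8 each; limma adjusted p 9.11e-10). The core proteins Uqcrc1 and Uqcrc2 lay far apart, with a 4.01-fold and a 1.99-fold lower signal. The catalytic subunits Uqcrfs1, the Rieske iron-sulfur protein, and Cyc1, cytochrome c1, lay between them at -1.69 and -1.49.

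Complex IV, cytochrome c oxidase, had a median of -1.13. Cox6c had levels of 4.10 to 5.45 in inflammatory cells, with a median of 4.18, against 5.47 to 6.53 in liver, with a median of 6.12. The groups nearly touched, since inflammatory cells PBS 13 was at 5.45 and liver PBS 12 at 5.47, while the next lower inflammatory cell array was at 4.47. The difference was -1.73 ± 0.18 (SE, n = 8 each; limma adjusted p 2.27e-07). Cox5a and Cox7b stood at -1.15 and -1.13, and Cox4i1 and Cox5b, at -0.79 and -0.66, were the 2 genes of the complex closest to 0. Ndufa4 was first described as a complex I subunit and is now known as a subunit of complex IV. It differed by -2.09 ± 0.18, and with it in complex IV the median of that complex was -1.14.

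Complex V had a median of -1.42. Its alpha and beta subunits, Atp5a1 and Atp5b, form the catalytic head, Atp5c1 is the rotating gamma subunit and Atp5o joins the head to the stalk. Atp5a1 had levels of 4.13 to 4.90 in inflammatory cells, with a median of 4.50, against 5.67 to 6.49 in liver, with a median of 6.29. The sample types did not overlap, and the difference was -1.66 ± 0.15 (SE, n = 8 each; limma adjusted p 3.2e-08). Atp5b, Atp5c1 and Atp5o followed at -1.53, -1.31 and -0.98. In all, 5 genes had more than 1 probe, namely Atp5a1, Atp5b, Ndufa1, Sdha and Uqcrc1. For these the lower signal in inflammatory cells was seen with every probe, as with the 3 probes of Atp5b at -1.53, -1.89 and -2.07.

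**Figure D2:**
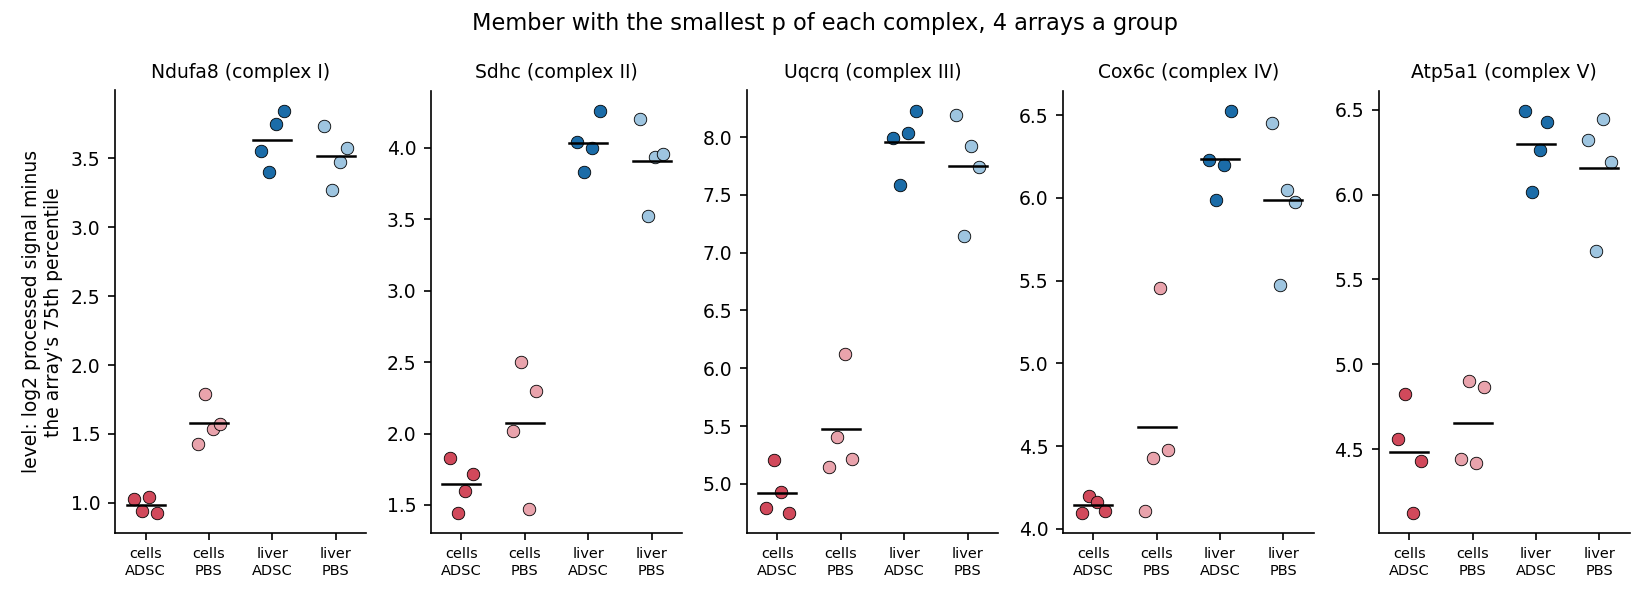
Level (log2 processed signal minus the 75th percentile of the array) of the gene with the smallest p in each complex, with 1 point per array, 4 arrays a group, and a line at the group mean. The inflammatory cell arrays lie below the liver arrays in all 5 panels, and PBS 13 is the inflammatory cell array nearest to liver for Uqcrq (6.13) and Cox6c (5.45).

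The lower levels in inflammatory cells were measured within slides too, although 1 slide gave a smaller difference. The arrays lay on 5 slides scanned on 3 days. On 4 slides the median difference of the 37 genes was -1.22, -1.66, -1.54 and -1.81, and all 37 genes were lower. On the other slide, which held inflammatory cells PBS 13 with liver PBS 12 and PBS 14, it was -0.59, and 26 of 37 genes were lower. Without liver PBS 12 and inflammatory cells PBS 13, a setting added after the data were seen, all 37 genes were still called lower. Their median was then -1.53, against 0.33 for all genes tested. In the 8 ADSC arrays alone all 37 were called lower, with a median of -1.62, against 0.20 for all genes tested. In the 8 PBS arrays alone 28 were called lower, with a median of -1.18, against 0.22 for all genes tested. With both treatments in the same fit, 7327 of 22174 genes were called lower in inflammatory cells for ADSC and 6848 for PBS. For the 8-array fits, and for the scalings that follow, the number of all genes called lower is not given. Under another scaling, the 75th percentile over probes detected on all arrays, 34 genes were called, and under quantile normalization 36 were. The medians over all genes tested were 0.70 and 0.22 in these 2 settings. Ndufb7 was not called in either, and Ndufb5 and Cox5b were not called in the first.

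Inflammatory cells PBS 13 differed from the other PBS inflammatory cell arrays unevenly across the 37 genes. It was above their mean in 27 genes, by a median of 0.58 over all 37. Ndufb5 was 1.30 higher, Cox6c 1.12 higher and Cox7b 1.07 higher there. In contrast, Uqcrc1 was at 2.16 on PBS 13, which is -1.09 relative to the mean of the other 3, and Sdhc was at 1.47, or -0.81. Cyc1 (-0.60), Ndufa10 (-0.59), Atp5b (-0.34), Atp5a1 (-0.32) and Sdha (-0.27) were also below the mean of the other 3. Within each of complexes I, II, III and V, genes thus lay on both sides of that mean, while all genes of complex IV lay above it. Liver PBS 12 was below the mean of the other 3 PBS livers for all 37 genes, from -0.22 for Ndufv2 to -1.56 for Ndufs3. It was also the liver array with the highest mean neutrophil marker level, 4.77 against 1.19 to 3.27 in the other PBS livers, the lowest mean hepatocyte marker level, and the highest 75th percentile. The part of these in the levels of the 37 genes was not tested.

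**Figure D3:**
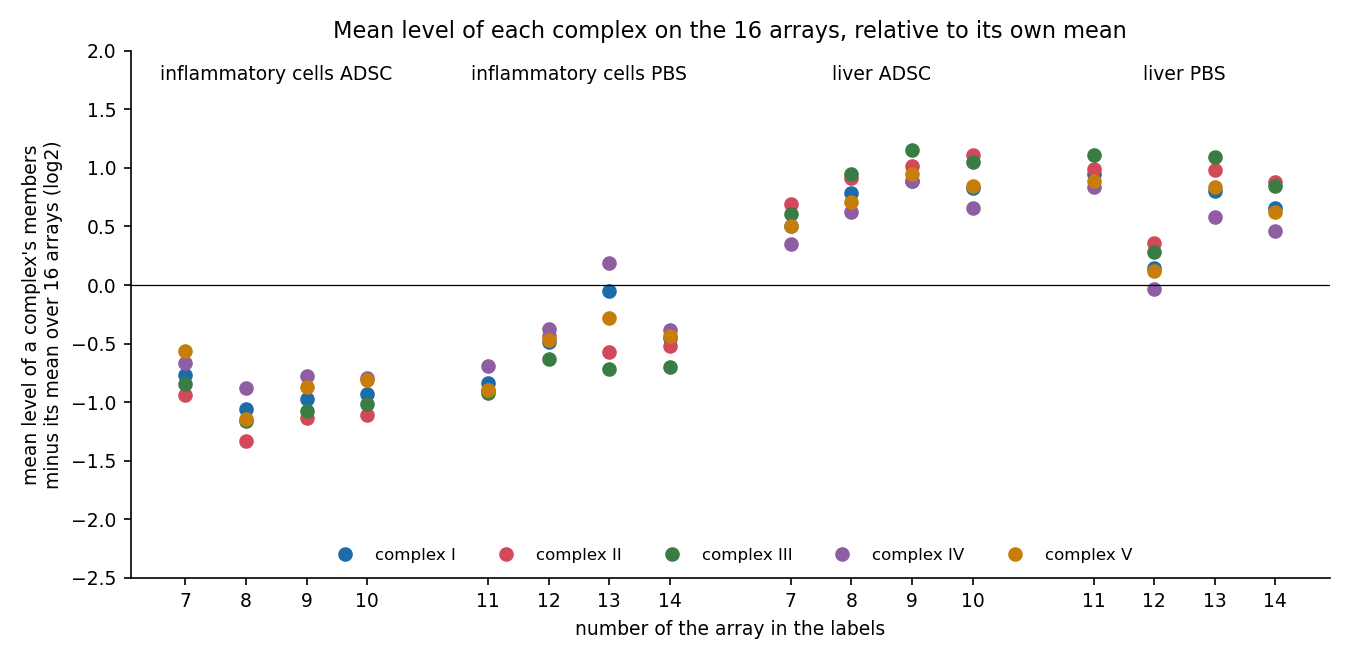
Mean level of the genes of each complex on each array, minus the mean of that complex over the 16 arrays, in log2 units (1 point per complex and array, with arrays ordered by group and label number). The inflammatory cell arrays lie below the liver arrays except in complex IV, where inflammatory cells PBS 13 lies above liver PBS 12; PBS 13 spreads most between complexes, and liver PBS 12 is the lowest liver array in all 5.

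Other genes of the pathway were counted from lists of known components, beside the 35.4% of all genes tested that were called lower. Of 38 other subunits tested, 33 were called lower in inflammatory cells and 0 higher, with a median of -1.18. All 17 tested of complex I were lower, with a median of -1.27. Also among those lower were Uqcr11 of complex III (-2.47 ± 0.19) and Atp5g3, a gene for the proton-carrying c subunit of complex V (-2.08 ± 0.15). The 5 not called were Uqcrh, Cox8a, Cox7a2l, Atp5h and Atp5k, and cytochrome c, Cycs, was not called either (-0.36 ± 0.17, limma adjusted p 0.0611). In the tricarboxylic acid cycle 12 of 13 genes were called lower. Suclg2 and Suclg1, both of succinyl-CoA ligase, differed by -3.25 ± 0.14 and -2.21 ± 0.15, and Fh1, fumarate hydratase, by -1.90 ± 0.15.

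Genes that build or surround the complexes were less uniform. For reference, 35.4% of all 22174 genes tested were called lower, 10862 were called higher and 84.3% were called in either direction. Of 19 assembly factors, 14 were called lower, among them Atpaf1 for complex V (-1.88 ± 0.12), Bcs1l for complex III (-1.61 ± 0.11) and Ndufaf1 for complex I (-1.88 ± 0.14). The 4 called higher were Ttc19 (2.59 ± 0.19), Ndufaf7 (1.89 ± 0.17), Cox10 (1.90 ± 0.25) and Sdhaf1 (1.28 ± 0.17), which assist complexes III, I, IV and II. Of 13 genes of mitochondrial membranes and protein import, 9 were called lower, among them Vdac1 of the outer membrane pore (-2.14 ± 0.14) and the import proteins Tomm40 (-1.71 ± 0.17) and Timm44 (-1.41 ± 0.13), and 1 was called higher, Tomm20 (0.42 ± 0.16). Of 5 tissue-restricted complex IV isoforms tested, Cox6a2 (2.74 ± 0.29) and Cox6b2 (1.26 ± 0.17) were called higher and Cox7a1 (-1.33 ± 0.18) lower. The other 2, Cox7b2 and Cox8b, entered the test through the sample type where they were brighter and were not well above background on most arrays of the other, so no size is given for them. Of 13 glycolysis genes, 7 were called lower and 4 higher, the higher ones being Pfkp, Slc2a1, Pkm and Hk2, at 2.29, 1.34, 1.29 and 0.80. The largest of those lower were Eno1 (-1.80), Tpi1 (-1.56) and Hk1 (-1.42).

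Of 13 regulators of mitochondrial genes, 7 were called lower and 2 higher in inflammatory cells. Among all 22174 genes tested, 35.4% were called lower, 10862 were called higher and 84.3% were called in either direction. Ppargc1a, a coactivator that raises mitochondrial gene expression, ranged over -2.70 to -0.73 in inflammatory cells and -0.69 to 0.33 in liver, and differed by -1.79 ± 0.21. Tfb1m (-1.34 ± 0.13), Polrmt (-1.18 ± 0.15), Polg (-1.04 ± 0.13) and Tfb2m (-0.39 ± 0.16), which act in mitochondrial gene expression or DNA replication, were called lower. So were Gabpa (-0.93 ± 0.13) and Esrra (-0.65 ± 0.16), the gene of ERRalpha. Esrrg, a nuclear receptor related to Esrra, was called higher, with levels of -0.90 to 0.40 in inflammatory cells, against -2.64 to -2.40 in liver (2.33 ± 0.16). Gabpb1, the partner of Gabpa, was also called higher (0.91 ± 0.35). Nrf1 (0.11 ± 0.31), Yy1 (-0.02 ± 0.17), Tfam (-0.22 ± 0.21) and Ppargc1b (0.33 ± 0.21) were not called.

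In inflammatory cells the 37 genes had negative differences after ADSC, but none passed the test. Of all 20190 genes tested, 1.18% were called and 1.05% were called lower, and 0 of the 37 were called. All 37 estimates were below 0, with a median of -0.45, against 0.03 for all genes. The range was -0.74 (Ndufv2) to -0.10 (Atp5b), the smallest adjusted p by limma was 0.169 (Ndufa8), and 10 of 37 had an unadjusted p below 0.05, as did 3724 of the 20190 genes. In 8 of the 37 genes the highest ADSC level was under the lowest PBS level, while 6.64% of all genes tested had that pattern. These were Ndufa8, Ndufb3, Ndufb7, Ndufb8, Ndufb9, Ndufb10, Ndufs7 and Cox5a, of which 7 belong to complex I. The median was -0.49 in complex I, -0.53 in complex II, -0.25 in complex III, -0.47 in complex IV and -0.34 in complex V. This order is not firm: without PBS 12 complex III was at -0.14, without PBS 13 complex IV was at -0.27, and across the alternatives complex V reached -0.015.

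Ndufa8 had levels of 0.94, 1.04, 0.93 and 1.03 on ADSC 7 to 10, against 1.43, 1.79, 1.53 and 1.57 on PBS 11 to 14. The 4 ADSC arrays were tightly grouped and all were lower. The difference was -0.60 ± 0.19 (SE, n = 4 each; 95% interval -1.02 to -0.17), with an adjusted p of 0.169 by limma and an exact two-sided permutation p of 0.0286, the smallest 4 against 4 arrays can give. Ndufv2, a core subunit with an iron-sulfur cluster, had levels of 1.58, 1.01, 1.24 and 1.33 on ADSC 7 to 10, against 1.49, 2.06, 2.59 and 1.98 on PBS 11 to 14. ADSC 7 overlapped PBS 11, and the difference was -0.74 ± 0.26 (limma adjusted p 0.195; exact permutation p 0.0571). Ndufb7 had levels of 4.70, 4.56, 4.49 and 4.48 on ADSC 7 to 10, against 4.90, 5.26, 5.63 and 4.94 on PBS 11 to 14. Its groups did not overlap, and the difference was -0.62 ± 0.23 (limma adjusted p 0.202; exact permutation p 0.0286). In Atp5b, where the treatment differences of the probes disagreed in sign, the levels were 5.75, 5.31, 5.61 and 5.73 on ADSC 7 to 10, against 5.52, 5.89, 5.44 and 5.95 on PBS 11 to 14. The brightest probe gave -0.10 and the other 2 gave -0.11 and 0.31.

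The size of the treatment difference in inflammatory cells varied with the scaling and the arrays used. The median of the 37 genes was -0.17 under quantile normalization, with 31 of 37 genes negative, and -0.31 with PBS 13 left out, with 37 negative. Within the second scan day, with 2 arrays of each treatment, it was -0.26, and within the third, with 2 ADSC arrays and PBS 13 alone, it was -0.98. On the 2 slides that held both treatments, 1 array of each, it was -0.26 and -0.29. Without the 3 arrays rich in pancreas transcripts the median was -0.43, and limma called 0 of all genes tested, the 37 and the neutrophil markers included, with 4608 at an unadjusted p below 0.05. All 10 neutrophil markers were called lower after ADSC, with mean levels of 1.74 to 2.64 in ADSC arrays and 5.17 to 7.14 in PBS arrays, and the 75th percentile was 123.4 to 304.5 in ADSC arrays and 229.1 to 510.2 in PBS arrays. None of the other marker lists had a call after ADSC. All 5 macrophage markers tested had negative differences (median -1.14) and an unadjusted p below 0.05, and all 10 exocrine pancreas markers were negative (median -2.86). Of 5 leukocyte markers 4 were negative and 1 positive (median -0.68), and 3 of the 5 had an unadjusted p below 0.05. The 4 T cell markers tested split into 2 negative and 2 positive. Positive differences were measured for all 8 hepatocyte markers tested (median 1.03, 4 with an unadjusted p below 0.05) and all 5 B cell markers (1.00, 4 likewise). The 4 erythroid markers tested (median 0.91) and the 5 heat shock genes (0.56) were all positive too. The part of these in the treatment difference was not tested. The other subunits gave the same picture, with 37 of 38 negative, a median of -0.49 and 0 called, and all 13 tricarboxylic acid cycle genes (median -0.39) and all 13 glycolysis genes (median -0.59) were negative with 0 called. The medians of the assembly factors (-0.01) and of the regulators (-0.10) were closer to 0.

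**Figure D4:**
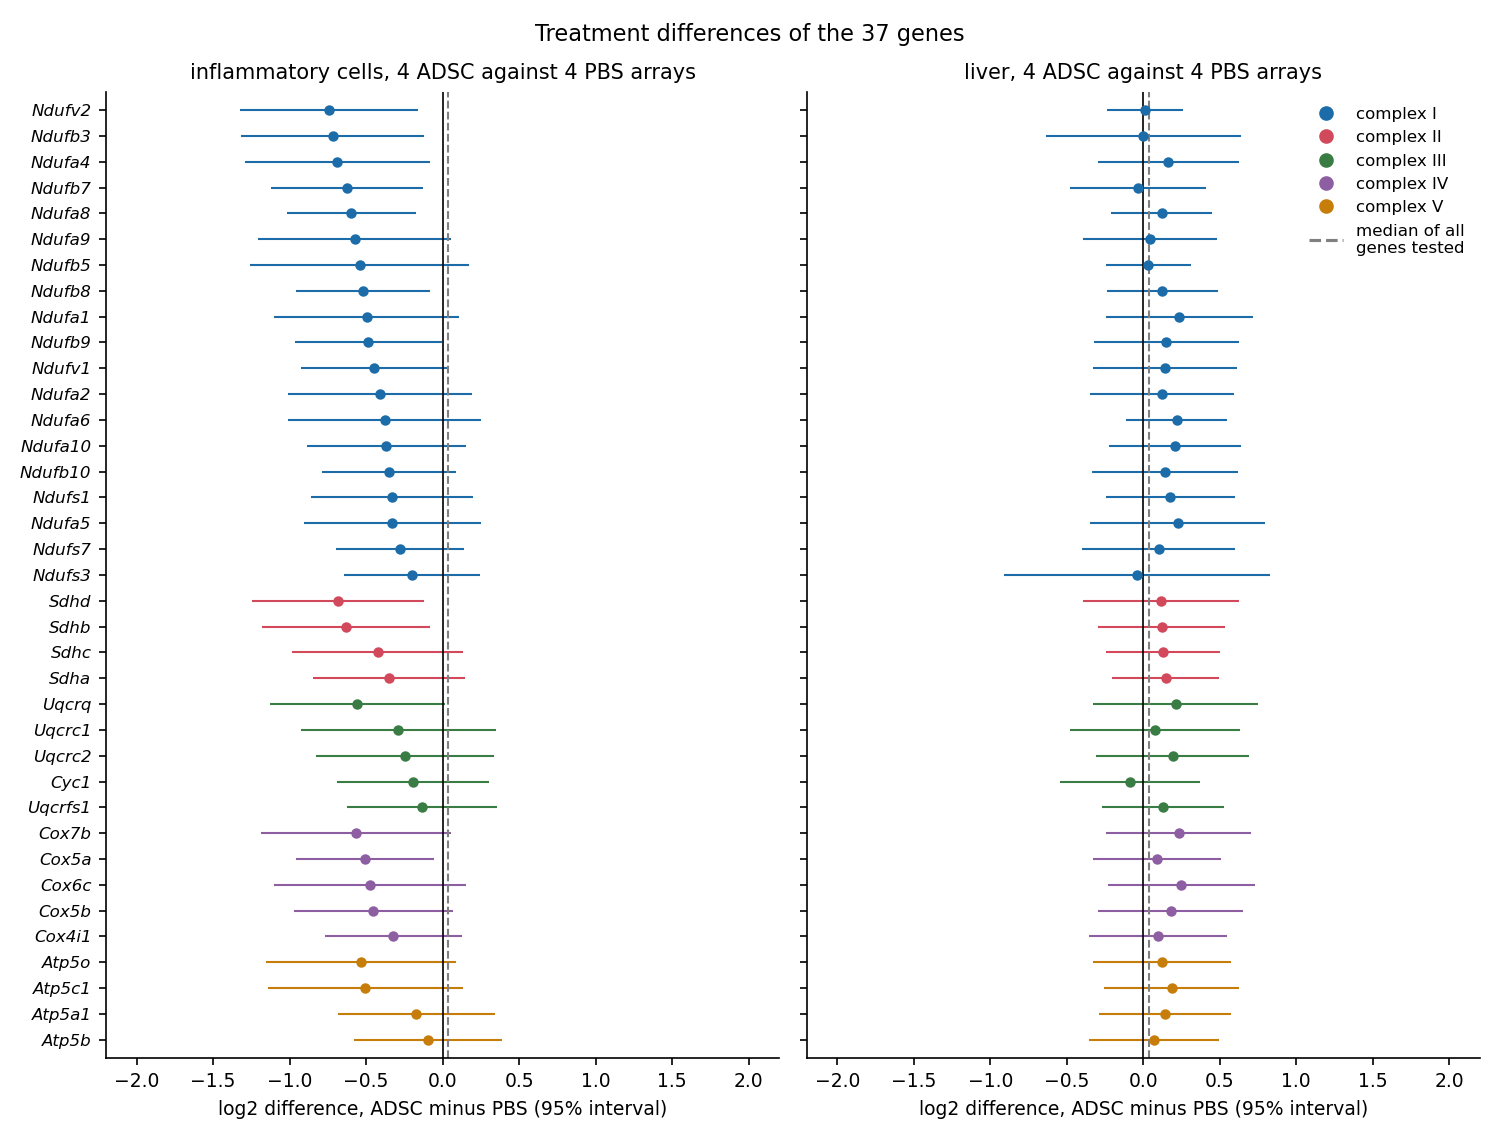
Log2 difference, ADSC minus PBS, of each of the 37 genes (points, coloured by complex) with its 95% interval from limma (bars), in inflammatory cells (left) and in liver (right). All 37 points lie below 0 in inflammatory cells and 34 of 37 lie above 0 in liver, and none passed the test in either; the dashed lines mark the median of all genes tested, 0.03 and 0.04.

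In whole liver no treatment difference was detected in these genes with 4 arrays a group. None of the 37 was called, nor was any of the 17340 genes tested (0% called by limma, 807 with an unadjusted p below 0.05, none of them among the 37). The median difference was 0.13, against 0.04 for all genes, and 34 of 37 estimates were above 0. The groups overlapped in all 37 genes, and they did not overlap in 2.89% of all genes tested. The range was -0.08 (Cyc1) to 0.25 (Cox6c). Leaving out liver PBS 12 gave a median of -0.03, with 16 of 37 above 0, so the direction rested on that array. With scan day in the fit the median was -0.08, and within the second scan day, with 2 ADSC arrays and 1 PBS array, it was also -0.08. Within slide 2, with 1 array of each treatment, it was -0.33, with 36 of 37 genes negative. The neutrophil markers averaged -1.32 to 0.22 on ADSC livers and 1.19 to 4.77 on PBS livers, with 0 of 9 called, and their part in these levels was not tested.

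Ndufa6, an accessory subunit of complex I, had the smallest p in liver. Its levels were 5.05, 5.30, 5.34 and 5.32 on ADSC 7 to 10, against 5.22, 4.70, 5.21 and 5.00 on PBS 11 to 14. The groups overlapped, and the difference was 0.22 ± 0.14 (SE, n = 4 each; 95% interval -0.11 to 0.55; limma adjusted p 0.998; exact permutation p 0.171). Cox6c had levels of 5.99, 6.20, 6.53 and 6.23 on ADSC 7 to 10, against 6.45, 5.47, 6.05 and 5.98 on PBS 11 to 14, and differed by 0.25 ± 0.21. Cox7b had levels of 5.75, 6.11, 6.32 and 6.01 on ADSC 7 to 10, against 6.16, 5.29, 6.02 and 5.79 on PBS 11 to 14, and differed by 0.23 ± 0.21. In both, PBS 12 was the lowest array and the other 7 overlapped.

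The treatment difference in inflammatory cells was also set against that in liver in 1 fit of all 16 arrays. Over all 22174 genes tested 0.0316% were called, 7 genes, and 0 of the 37 were among them. All 37 estimates were below 0, with a median of -0.59, against -0.03 for all genes. Ndufa8 had the smallest p, with -0.72 ± 0.22 (95% interval -1.19 to -0.25; limma adjusted p 0.298). Ndufb8, a membrane-arm subunit, had levels of 3.92, 3.79, 3.84 and 3.92 in inflammatory cells ADSC 7 to 10, against 4.13, 4.58, 4.30 and 4.53 in PBS 11 to 14. In liver it had 5.28, 5.49, 5.71 and 5.38 on ADSC 7 to 10, against 5.64, 5.00, 5.33 and 5.40 on PBS 11 to 14. The treatment difference in inflammatory cells minus that in liver was -0.64 ± 0.24 for Ndufb8 (limma adjusted p 0.398) and -0.75 ± 0.29 for Ndufv2 (limma adjusted p 0.401). Without liver PBS 12 and inflammatory cells PBS 13 the median was -0.27.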

How the data were processed

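RNA of 16 samples was hybridised to 1-colour Agilent arrays. The deposited processed signal came from Agilent software, Feature Extraction 10.5.1.1 per the file headers. It is an intensity that was background-subtracted within each array and not normalized between arrays. The deposited series table held the same intensity values, with a largest relative difference of 0. Control spots and outlier spots were left out, and the log2 processed signal had the 75th percentile of the array subtracted. Of 41174 probes, 23374 were named with 16535 RefSeq symbols (GRCm38.p6) through their accession, and the brightest probe stood for a gene. Only genes detected well above background on 4 or more of the arrays in a fit entered it. limma 3.58.1 (R 4.3.3, lmFit and eBayes) compared ADSC with PBS in the 8 arrays of each sample type. It compared sample types, and treatment differences between them, in all 16 arrays. Benjamini-Hochberg adjustment ran over every gene in a fit, calls were made at 0.05, and the fit was tested on simulated data. The number of arrays limits the precision.

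The 37 genes and the other gene lists were chosen with earlier results of these data known. Values on every array are given for the member with the smallest p of each complex in inflammatory cells minus liver, for the 3 members with the smallest p in the other comparisons, and where probes disagreed in sign. From the other lists the 3 genes with the smallest p are named, with all regulators; 1 gene that this rule names is not reported here. Genes named beyond this were chosen after their values were seen. Alternatives were other scalings, filters, the mean of all probes, slide and scan day, and leaving out arrays. A further alternative was normexp with an offset of 50, run on the median signal and median background intensity of each spot.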

Additional observations from a re-analysis of the deposited data

Results flagged for a closer look

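The levels of the 37 genes were screened in each group of 4 arrays for an array whose gap to the nearest other was large relative to the group's range by Dixon's 95% criterion. Of 148 gene and group combinations 5 were marked, and chance marks about 1 in 20. Ndufa4 was at 6.05 in liver ADSC 9, against 5.43 to 5.51 on the other ADSC livers. Ndufa6 was at 5.05 in liver ADSC 7, against 5.30 to 5.34 on the others. In inflammatory cells ADSC 7 Ndufa6 was at 4.28, against 3.88 at most on the other ADSC arrays. Liver PBS 12 was low for Ndufb3, at 3.21 against 4.23 to 4.42, and for Sdhb, at 3.37 against 3.98 to 4.10 on the other PBS livers.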

How the results depend on the processing

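The lower levels in inflammatory cells kept their direction for all 37 genes under every alternative run except within slide 5, where 26 of 37 were lower. The median of -1.49 was -1.14 with the 75th percentile over probes detected on all arrays (where the median of all genes was 0.70 instead of 0.35), -1.03 with quantile normalization, -1.01 with normexp and quantile normalization, and -1.18 in the PBS arrays alone. It was -1.22, -1.81 and -0.59 within slides 1, 4 and 5. Leaving out 1 array gave -1.58 to -1.38, with 37 genes called each time. Of all genes tested, 18060 to 18552 were then called in either direction. The filter that requires detection on every array left 10465 genes called of fewer tested, and the median of all genes became -0.10. The labels give the same numbers to arrays of both sample types, and deviations of same-numbered arrays correlated at -0.06 to 0.17. These correlations cannot show whether such arrays share a mouse, because whole liver and isolated cells may deviate differently. The main fits did not take the numbers as pairs. With the number as a replicate block the median was -1.49 and 37 genes were called. In that setting 0 of all genes were called for the difference between treatment effects.

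For ADSC minus PBS in inflammatory cells, the median was -0.17 with quantile normalization (0.014 in complex III, the opposite sign) and -0.20 with normexp and quantile normalization. Leaving out 1 array gave -0.56 to -0.31. With all 16 arrays in the fit 1 of the 37 was called, Ndufa8, and 915 genes in all. The 239 genes called became 143 with the percentile over detected probes, 110 with no filter, 817 with slide as a random block, 153 with scan day, 0 without the 3 pancreas-rich arrays, and 67 to 507 with 1 array left out; the causes were not tested. The count was 507 without ADSC 7, 137 without ADSC 8, 67 without ADSC 9, 86 without ADSC 10 and 76 without PBS 12.

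In liver, Ndufa6 reversed to -0.010 with scan day in the fit, and the median spanned -0.03 to 0.23 with 1 array left out. The mean of all probes called 1 gene and the fit of all 16 arrays 9 genes. For the difference between treatment effects, the median was -0.28 with quantile normalization, -0.31 with normexp and quantile normalization, -0.27 without both arrays that stood apart, and -0.70 to -0.44 with 1 array left out. The 7 genes called became 1 with the percentile over detected probes, 22 with quantile normalization, 32 with normexp, 65 with normexp and quantile normalization and 64 with detection on every array. They became 0 with no filter, with scan day, or without both arrays, and 0 to 47 with 1 array left out, with 0 reached without liver PBS 12, PBS 13, PBS 14, ADSC 7, ADSC 8 or ADSC 10, each alone, and 47 without inflammatory cells PBS 14. Of the 16 arrays, only leaving out inflammatory cells PBS 12 kept that count within 1.5 times. Signal over background limits none of the 37 genes, and 4 arrays a group limit the size of treatment difference that can be called.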
